A study of Mus musculus with 4 samples.

Results

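Histone genes of mouse cortical neurons were examined in 4 RNA sequencing libraries. The set held the rows of the expression table whose symbol names a clustered histone gene (Hist1h, Hist2h, Hist3h or Hist4h) or begins with H2af, H1f or H3f3, chosen by name and not by level. It came to 82 of 22552 rows, 68 clustered and 14 variant. Levels were read as FPKM, fragment counts scaled by transcript length and by the fragments mapped in the library, a unit the labels do not name. Comparison between genes is limited by sequence that they share and by the unknown selection of RNA, both described below.

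Histones are the proteins around which DNA is wrapped: H2A, H2B, H3 and H4 form the nucleosome core, and H1 binds the linker DNA. Clustered, replication-dependent genes supply core and linker histones in S phase, and their mRNAs typically end in a conserved stem-loop and carry no poly(A) tail. Variant genes such as those of H3.3, H2A.Z and macroH2A lie outside the clusters, are transcribed throughout the cell cycle into polyadenylated mRNA, and are the main source of new histone in neurons, which no longer divide. The kit named in the labels does not tell whether poly(A) RNA was selected, a step that lowers the yield of mRNAs without a tail.

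The cultures came from cortices of E16.5 mouse embryos and had been given TTX (1 µM) and APV (100 µM), blockers of sodium channels and NMDA receptors, on day 5 in vitro. The genotypes were wild type and Brg1-cko (BAF53bCre Brg1F/F, here cKO), in which floxed alleles of Brg1 are combined with a Cre driven by the neuronal gene BAF53b. Brg1, listed as Smarca4, encodes an ATPase that moves nucleosomes as part of BAF complexes. Each genotype was measured at basal KCl and after 50 mM KCl for 6 h, added on day 6. Each group has 1 library, so no spread between cultures is known and no test was possible, and how many embryos each culture held is not given in the sources used here. "Higher" and "lower" therefore describe these libraries alone, and intervals cover counting error only.

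Smarca4 measured 34.0 (basal) and 28.5 FPKM (KCl) in wild type, and 10.5 and 10.4 FPKM in cKO libraries, lower in both as labelled. The activity-induced gene Fos measured 2.40 and 3.69 FPKM in the basal libraries and 203.4 and 224.1 after KCl. All 7 measured neuron markers were detected, with a summed level of 1920 to 2911 FPKM. Xist stood at 83.3 and 78.1 FPKM in wild type and at 0.14 and 0.29 in cKO cultures, so embryo sex followed genotype and both cannot be told apart in any genotype comparison. Depth, approximated from the value of a single fragment, was 20700000 to 23100000 fragments per library. On a transcript of 500 bases, the size of many clustered histone genes, 1 FPKM is then 10.4 to 11.6 fragments and 0.1 FPKM about 1 fragment.

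The 3′ ends of the clustered genes are shown first. In GENCODE, clustered genes at 1 FPKM or more tended to run further past the stem-loop than genes listed at 0. Hist1h4h and Hist1h3g were exceptions with short ends, and Hist1h2bc and Hist2h2be had no stem-loop match. A 16-base match to the histone stem-loop consensus was found in the GENCODE M21 transcripts of 42 of 64 clustered members with a transcript, of 1 of 14 variant members (H2afx), and of 0.071% of 55250 genes outside the 2 classes. Some clustered members without a match have GENCODE transcripts shorter than their RefSeq span, such as Hist1h2ak (393 and 536 bases) and Hist1h4k (312 and 409). A missing match therefore need not mean a missing stem-loop. The stem-loop is in capitals with 5 flanking bases on each side, read 5′ to 3′ from the GENCODE transcripts with GRCm38 coordinates. In the first 4 genes and H2afx the transcript ran on for 330 bases or more after it, and in the last 3 it ended 46 to 51 bases after it.
Hist3h2a, chr11:58955167-58955192, plus strand: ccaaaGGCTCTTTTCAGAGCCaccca
Hist1h1c, chr13:23739507-23739532, plus strand: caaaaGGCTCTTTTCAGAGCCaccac
Hist2h3c1, chr3:96247322-96247347, plus strand: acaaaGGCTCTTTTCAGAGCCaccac
Hist1h4i, chr13:22040961-22040986, minus strand: ttaaaGGCCCTTTTTAGGGCCaccac
H2afx, chr9:44335235-44335260, plus strand: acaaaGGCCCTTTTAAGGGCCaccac
Hist1h4h, chr13:23531453-23531478, plus strand: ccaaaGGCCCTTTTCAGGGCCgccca
Hist1h3g, chr13:23535884-23535909, plus strand: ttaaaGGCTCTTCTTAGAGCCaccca
Hist1h3b, chr13:23752815-23752840, plus strand: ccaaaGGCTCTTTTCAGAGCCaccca

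Few clustered genes were present at appreciable levels. Of the 68 clustered members, 12 (17.6%) reached 1 FPKM in at least 1 library, against 58.7% of all genes and 11 of the 14 variant members. A further 31 clustered members lay between 0.1 and 1 FPKM, 5 were above 0 but below 0.1, and 20 were listed at 0 in all 4 libraries. Members are rows, and some rows at 0 join genes: Hist1h2ao with Hist1h2ap, Hist1h4m with Hist1h4n, and Hist2h2aa1 with Hist2h2aa2. Of these genes Hist1h2ap, Hist1h4n and Hist2h2aa2 also have rows of their own, likewise at 0, and so count more than once. Hist1h3a (highest value 0.096 FPKM) lay just outside the limit of 0.1 and Hist1h3h (0.104) just inside it, a distance of less than 1 fragment. At the limit of 1 FPKM, Hist1h2be (0.99) lay just outside and Hist1h2bg (1.29) just inside. The 3 variant genes below 0.1 FPKM were the oocyte linker histone gene H1foo, the testis linker histone gene H1fnt and the testis H2A gene H2afb1.

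A few genes made up nearly all of the clustered signal. Hist3h2ba, Hist3h2a, Hist1h1c and Hist1h2bc together held 88.1% to 89.9% of the summed clustered FPKM in each library. Hist3h2ba and Hist3h2a alone held 68.2% in wild-type basal and 55.4% in wild-type KCl.

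The highest clustered genes with a stem-loop match had GENCODE ends that run past it. Of the 14 clustered genes with a stem-loop match and a poly(A) signal (AATAAA or ATTAAA in the last 45 bases of a transcript), 6 reached 1 FPKM, 7 lay between 0.1 and 1, and 1 lay below 0.1. Of the 28 with a stem-loop match and no such signal, 3 reached 1 FPKM and 13 lay below 0.1, of which 9 were listed at 0 in all 4 libraries. By length, the 22 genes whose transcript runs 100 bases or more past the stem-loop had a median highest level of 0.61 FPKM, with 1 below 0.1, and the 20 that end sooner had a median of 0.0865, with 13 below 0.1. Hist3h2a runs on for 1643 bases, Hist2h3c1 for 1167 and Hist1h1c for 840, while Hist1h3b, listed at 0 throughout, ends after 51. Hist1h2bc and Hist2h2be reached 1 FPKM with no stem-loop match in their annotated transcripts. The annotated transcript of Hist1h2bc (chr13:23684199-23692908, GRCm38) has 2 exons, whereas the other clustered genes at 1 FPKM with a GENCODE transcript have 1. These ends are those of GENCODE. RefSeq spans were shorter, at 508 bases for Hist3h2a, 725 for Hist1h1c and 664 for Hist2h3c1. The longest GENCODE transcripts of these genes have 2146, 1560 and 1825 bases. Both annotations may differ from the gene models used for the deposited values.

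**Figure D1:**
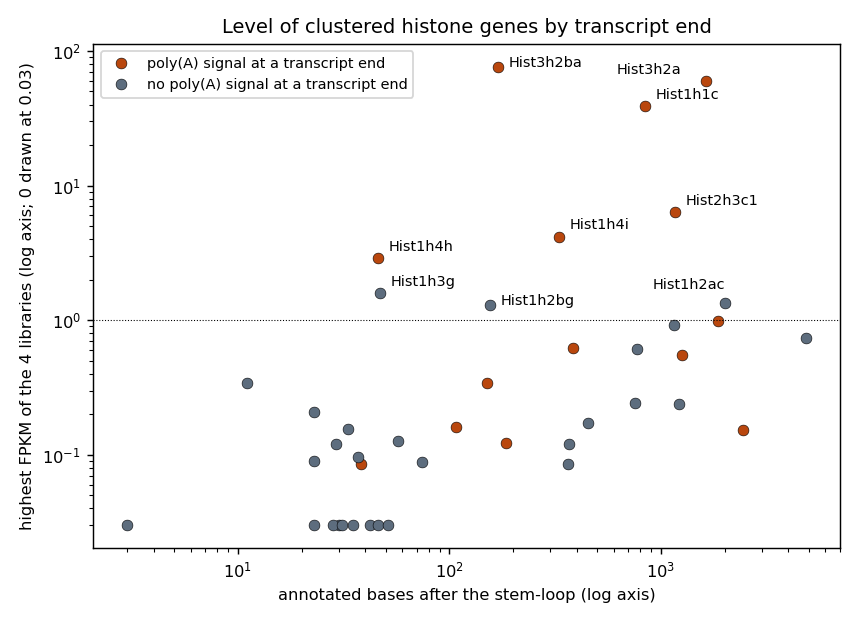
Each point is a clustered histone gene with a stem-loop match. The horizontal axis gives the annotated bases after the stem-loop and the vertical axis the highest FPKM of the 4 libraries, both on log axes, and colour marks a poly(A) signal, with 0 drawn at 0.03 and the dotted line at 1 FPKM. Of the 7 genes at or above the line that run 100 bases or more past the stem-loop, Hist3h2ba, Hist3h2a, Hist1h1c and Hist2h3c1 are highest, and the 9 genes listed at 0 all lie to the left of 100 bases.

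Sequence shared between genes limits how reads can be assigned. Of the stretches of 50 bases in the longest annotated transcript, the median share also found in another gene was 30.1% over the 11 clustered genes at 1 FPKM with a transcript (range 0.0% to 100.0%) and 6.1% over the 11 variant genes. It was 30.1% for Hist1h2bc, partly with genes that are not histone genes, 100.0% for Hist2h3c1, 45.8% for Hist1h4h, 54.1% for Hist1h3g, 8.5% for Hist1h1c and 0.0% for Hist2h2be, so the level of Hist2h3c1 in particular is uncertain. Over the 53 clustered genes below 1 FPKM the median was 49.5%. For the 9 genes with a stem-loop match that were listed at 0, all with short ends, it was 43.8% to 100.0%. Of the genes with long ends, it was 22.1% for Hist3h2ba and 31.5% for Hist3h2a, but 100.0% for Hist2h3c1. Shared sequence thus differed along with transcript end, and the part of either in the levels was not tested.

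Among the clustered linker histone genes, Hist1h1c (chr13:23738808-23740367, GRCm38), which encodes H1.2, stood far above the other 5. It measured 23.96 FPKM in wild-type basal, 32.7 in wild-type KCl, 29.9 in cKO basal and 39.2 in cKO KCl. Both KCl libraries were above the basal library of the same genotype, by 1.36-fold in wild type (95% counting interval 1.19 to 1.56) and 1.31-fold in cKO cultures (1.16 to 1.48), and the cKO library was the higher in both conditions. In the cKO the KCl ratio was below 1 with rescaling to the ribosomal protein genes, which sets the median ratio of those genes to 1. Hist1h1e measured 0.27, 0.92, 0.48 and 0.81 FPKM in the same order, Hist1h1b 0.13, 0.78, 0.13 and 0.46, Hist1h1d 0.35, 0.62, 0.31 and 0.74, and Hist1h1a 0.055, 0.39, 0.27 and 0.44. All 4 were higher with KCl in both genotypes, on 1 to 15 approximated fragments per value, and were picked for mention after these values were seen.

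Hist1h2bc, an H2B gene, had the largest KCl difference of any member in wild type on the scale of log2(FPKM + 1), at 1.498. It measured 15.7 FPKM in wild-type basal, 46.1 in wild-type KCl, 19.4 in cKO basal and 32.2 in cKO KCl. The KCl libraries were the higher in both genotypes, and the cKO stood between the wild-type values in both conditions. The ratio of KCl to basal was 2.94 in wild type (2.61 to 3.31) and 1.66 in cKO cultures (1.49 to 1.86). After KCl the cKO value was 1.43-fold lower than wild type (1.31 to 1.56), and at basal KCl it was 1.24-fold higher (1.08 to 1.42). All 4 ratios kept their direction under the 4 rescalings. Hist1h2bc accounted for 52.4% of the KCl difference in summed clustered FPKM in wild type, beside 29.3% in cKO cultures.

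Hist3h2ba, the H2B gene of the Hist3 cluster (chr11:58948920-58949533, GRCm38), was the most abundant clustered gene and differed little, at 73.5 FPKM in wild-type basal, 76.1 in wild-type KCl, 64.4 in cKO basal and 71.3 in cKO KCl. Hist2h2be, on chromosome 3, went the other way from Hist1h2bc with KCl. It measured 2.89, 2.23, 3.15 and 1.82 FPKM in the same order. KCl was lower by 1.297-fold in wild type (1.01 to 1.65) and by 1.73-fold in the cKO (1.36 to 2.22), a direction that held under the 4 rescalings. Hist1h2bg stood between 0.78 and 1.29 FPKM in all 4 libraries, on 8 to 13 approximated fragments.

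Hist1h2bc and the H2A gene Hist1h2ac lie head to head, 250 bases apart in GENCODE, and so share the sequence between their starts. Hist1h2ac measured 0.47 FPKM in wild-type basal, 1.11 in wild-type KCl, 1.07 in cKO basal and 1.34 in cKO KCl. It was lowest in wild-type basal, as Hist1h2bc was, but on only 5 to 15 approximated fragments per library, and the counting intervals of both KCl ratios include 1 (2.36, 0.76 to 8.41, in wild type and 1.26, 0.55 to 3.11, in the cKO). The ratio in cKO cultures was below 1 with rescaling to the ribosomal protein genes. Hist1h2bc stood 18.2 to 41.6 times as high as Hist1h2ac.

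Promoters of clustered genes had features in common that the choice of members did not use. Windows of 250 bases before to 50 after the start, from RefSeq (GRCm38.p6), were matched for 69 of the 82 members, with 59 windows for clustered (2 for Hist1h2be) and 11 for variant genes. Hist1h2bc was among the members without a matched window, so the counts below leave it out. On both strands, CCAAT was found in 51 of 59 clustered windows and in 37.4% of all 32851 windows, TATAAA in 33 of 59 and 13.6%, and the octamer ATTTGCAT in 14 of 59 and 1.74%. The calcium and cAMP response element TGACGTCA was found in 4 of 59 clustered windows (Hist1h2ag, Hist1h2bj, Hist1h4a and Hist1h4h) and in 1.79% of all, and the AP-1 letters TGANTCA in 3 of 59 and 7.81%. Of the 11 variant windows, CCAAT was in 7, TATAAA and the octamer in 1 each (H3f3b for both), and TGACGTCA and TGANTCA in 0. Of the 59 clustered windows 16 overlap that of another clustered gene, so that 1 match can count for both genes, as TGACGTCA does for Hist1h2ag and Hist1h2bj. A window can hold matches to more than 1 of these motifs, and a match is a run of letters, not a shown site of binding. The window of Hist1h2ac is printed because it spans the stretch shared with Hist1h2bc, and that of Hist1h4h because it alone of the 4 genes with TGACGTCA reached 1 FPKM. Hist1h4h was higher with KCl, whereas Hist1h4a measured 0.158, 0.161, 0 and 0 FPKM, Hist1h2ag was listed at 0 except for 0.090 FPKM in cKO KCl, and Hist1h2bj was listed at 0 in all 4 libraries. In Hist1h4h the match lies 70 bases before the start. Matches to the 5 motifs are in capitals.
Hist1h2ac, chr13:23683910-23684209, minus strand: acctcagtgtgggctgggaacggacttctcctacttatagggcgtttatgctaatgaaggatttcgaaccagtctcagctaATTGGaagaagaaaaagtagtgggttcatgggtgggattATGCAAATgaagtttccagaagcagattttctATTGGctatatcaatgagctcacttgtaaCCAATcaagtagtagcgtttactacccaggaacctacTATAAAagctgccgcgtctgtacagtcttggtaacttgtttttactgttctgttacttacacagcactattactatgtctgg
Hist1h4h, chr13:23530794-23531093, plus strand: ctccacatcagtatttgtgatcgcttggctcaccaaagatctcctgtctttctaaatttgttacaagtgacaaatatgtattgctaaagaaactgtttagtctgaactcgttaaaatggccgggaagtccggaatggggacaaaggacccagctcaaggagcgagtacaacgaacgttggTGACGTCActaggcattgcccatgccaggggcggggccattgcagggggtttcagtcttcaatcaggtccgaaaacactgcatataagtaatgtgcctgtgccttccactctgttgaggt

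Of the clustered H2A genes only Hist3h2a and Hist1h2ac reached 1 FPKM, and 9 of the 18 were listed at 0 throughout. Hist3h2a (chr11:58954685-58956830, GRCm38) lies 5151 bases from Hist3h2ba. It measured 51.1 FPKM in wild-type basal, 57.2 in wild-type KCl, 50.6 in cKO basal and 59.4 in cKO KCl, and its ratios of 1.12 and 1.17 with KCl were below 1 with rescaling to the ribosomal protein genes. The summed Hist3 rows came to 124.8, 133.9, 115.4 and 131.6 FPKM, against 47.1, 95.1, 58.2 and 87.6 for the 54 rows of the Hist1 cluster. The Hist1 sum without Hist1h2bc was 31.4, 49.0, 38.8 and 55.4 FPKM, which is 1.56-fold higher with KCl in wild type and 1.43-fold in cKO cultures. The Hist2 sum was 10.7, 11.6, 11.5 and 9.75 FPKM.

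The H3 and H4 genes were low. Hist2h3c1 measured 4.85 FPKM in wild-type basal, 6.36 in wild-type KCl, 5.38 in cKO basal and 4.01 in cKO KCl, so that KCl was the higher in wild type and the lower in the cKO. Counting intervals of both KCl ratios include 1 (1.31, 0.94 to 1.81, and 0.75, 0.53 to 1.07), and the ratio in wild type was below 1 with rescaling to the ribosomal protein genes. After KCl the cKO was 1.58-fold lower than wild type (1.12 to 2.20). Hist2h3c2-ps, a row that its symbol marks as a pseudogene, stood between 1.94 and 2.71 FPKM.

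Hist1h4h, an H4 gene, measured 1.01 FPKM in wild-type basal, 2.48 in wild-type KCl, 1.21 in cKO basal and 2.87 in cKO KCl. Both KCl libraries were above both basal libraries, with ratios of 2.45 in wild type (1.10 to 6.07) and 2.38 in cKO cultures (1.21 to 5.55). Hist1h4i, also an H4 gene, measured 1.89, 3.32, 2.49 and 4.18 FPKM, again with KCl above basal, but with counting intervals that reach below 1 (1.76, 0.92 to 3.46, and 1.68, 0.97 to 2.98). Hist1h3g, an H3 gene, measured 0.10, 0.82, 0.40 and 1.59 FPKM on 1, 9, 4 and 18 approximated fragments, and its ratio was 8.17 in wild type (1.21 to 382) and 3.99 in cKO cultures (1.41 to 17.3). The directions of Hist1h4h, Hist1h4i and Hist1h3g with KCl held in both genotypes under the 4 rescalings.

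**Figure D2:**
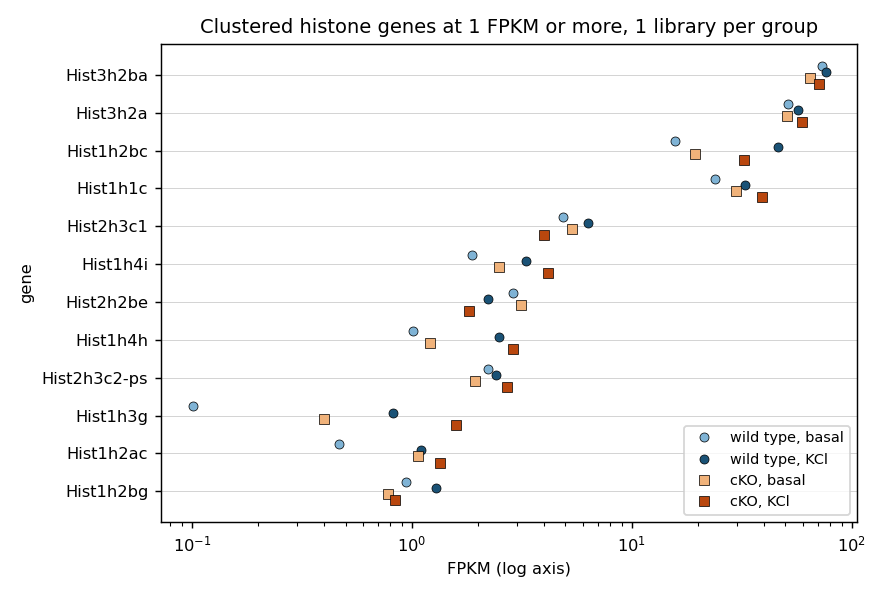
FPKM on a log axis for the 12 clustered histone genes that reached 1 FPKM, with 1 point per library (circles wild type, squares cKO, darker shade KCl). Hist1h2bc runs from 15.7 in wild-type basal to 46.1 in wild-type KCl, while the 4 values of Hist3h2ba lie between 64.4 and 76.1.

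Below 1 FPKM, most single clustered genes rested on a handful of fragments. Hist1h2be, with a longer annotated transcript, was an exception, on 17 to 53 approximated fragments per library. Its ratio of KCl to basal was 2.96 in wild type (1.72 to 5.56) and 1.08 in cKO cultures (0.66 to 1.82). Of the 31 members between 0.1 and 1 FPKM, 12 were above 0 in all 4 libraries. With KCl 24 were higher and 4 lower in wild type, and 17 were higher and 7 lower in the cKO, the others being equal. Low genes in general leaned the same way: of all 3072 genes with a highest level between 0.1 and 1 FPKM, 57.9% were higher and 39.6% lower with KCl in wild type, and 56.2% and 41.4% in cKO cultures, where the share of members that were higher (54.8%) was near that of all such genes. With rescaling to the ribosomal protein genes 19 members were higher and 9 lower in wild type, and 15 and 9 in cKO cultures. Of all such genes 47.1% and 43.9% were then higher. Rescaling to the upper quartile also gave 19 and 9 in wild type, with 55.4% of all such genes higher. Between genotypes 11 were higher and 13 lower in cKO cultures at basal KCl, where 46.1% of all such genes were higher and 45.9% lower. After KCl 9 were higher and 19 lower, where 44.6% of all such genes were higher and 53.6% lower. At basal KCl the member counts became 13 higher and 11 lower with rescaling to the upper quartile, and 16 and 8 with rescaling to the presynaptic genes. The share of all such genes that were higher became 48.3% and 57.7%. The members' summed level was 3.96 FPKM in wild-type basal and 8.35 in wild-type KCl, about 56 and 143 fragments, and 4.41 and 7.11 in the cKO, about 78 and 121 fragments. Hist1h2be alone held 17 and 53 of these in wild type, and 32 and 37 in the cKO.

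Counted by the fixed size of 2-fold on log2(FPKM + 1), 1 of the 12 clustered genes at 1 FPKM was higher with KCl in wild type (Hist1h2bc) and 0 were lower, where 5.07% of 13248 genes at 1 FPKM were higher, 3.31% lower and 8.39% either. In the cKO 0 of 12 were past this size in either direction, where 4.41% of all genes were higher, 3.09% lower and 7.5% either. Adding 1 shrinks the ratios of low genes. In the deposited values Hist1h2bc, Hist1h2ac, Hist1h4h and Hist1h3g were at least 2-fold higher in wild type, and Hist1h4h and Hist1h3g in the cKO. The median log2 ratio over the 12 was 0.38 in wild type and 0.28 in cKO cultures, beside −0.01 and 0.01 over all genes. The cKO median was −0.08 with rescaling to the ribosomal protein genes, which moved the all-gene medians to −0.35 and −0.39.

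Between genotypes no clustered gene was past 2-fold on this scale, where 0.936% of all genes were higher and 0.551% lower in cKO cultures at basal KCl (1.49% either), and 1.87% and 0.944% after KCl (2.82% either). In the deposited values Hist1h2ac and Hist1h3g were at least 2-fold higher at basal KCl, on 11 and 4 approximated fragments in the cKO library. As deposited 8 of the 12 genes were higher and 4 lower at basal KCl, and 7 and 5 after KCl. Of all 13248 genes 6918 were higher and 6270 lower at basal KCl, and 7302 and 5915 after KCl. Under all 4 rescalings 8 of the 12 stayed higher and 1 lower at basal KCl, and 6 and 4 after KCl. Rescaling to the presynaptic genes raised every cKO ratio (all-gene medians 0.21 and 0.29), which takes genes out of the lower count. The median log2 ratio was 0.13 at basal KCl and 0.09 after KCl, beside 0.01 and 0.03 over all genes. The summed clustered level at basal KCl was 182.7 FPKM in wild type, beside 185.2 in cKO cultures, and after KCl it was 240.6 and 229.0.

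Variant genes carried most of the summed histone FPKM in these libraries, for which it is not known whether poly(A) RNA was selected. The 14 rows summed to 493.6 FPKM in wild-type basal, 492.9 in wild-type KCl, 505.9 in cKO basal and 531.3 in cKO KCl. They held 95.5% to 96.6% of the summed H3 FPKM, 74.7% to 78.4% of the H2A and 72.1% to 80.9% of the H1. No row for an H2B or H4 gene outside the clusters belongs to the set.

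H3f3b, with H3f3a a gene of the replacement histone H3.3 that is placed on DNA outside replication, was the highest of all members. It measured 176.8 FPKM in wild-type basal, 191.2 in wild-type KCl, 162.7 in cKO basal and 193.8 in cKO KCl, and H3f3a 33.1, 35.6, 32.0 and 38.5. Both genes were slightly higher with KCl in both genotypes, by 1.08-fold (1.04 to 1.12) and 1.19-fold (1.15 to 1.24) for H3f3b, and lower under rescaling to the ribosomal protein genes. H3f3b stood 5.03 to 5.37 times as high as H3f3a in every library, and both encode the same protein.

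The macroH2A genes, whose products carry a large globular domain and are associated with repressed chromatin, differed in direction with KCl. H2afy, which encodes macroH2A1, measured 46.2 FPKM in wild-type basal, 59.1 in wild-type KCl, 48.4 in cKO basal and 63.9 in cKO KCl. H2afy2, which encodes macroH2A2, measured 47.0, 28.1, 48.3 and 36.6 FPKM. The genes were level in the basal libraries (ratio of H2afy to H2afy2 0.98 and 1.00) and apart after KCl (2.10 in wild type and 1.75 in cKO cultures), a ratio within each library that no rescaling changes. H2afy2 was 1.67-fold lower with KCl in wild type (1.56 to 1.79) and 1.32-fold lower in the cKO (1.24 to 1.40). This direction held under the 4 rescalings, whereas the higher value of H2afy changed sign under rescaling to the ribosomal protein genes. After KCl, H2afy2 was 1.301-fold higher in the cKO (1.21 to 1.40). The row H2afy3, annotated as a processed pseudogene on chromosome 15, shares 13.4% of its stretches of 50 bases with H2afy2, and was likewise lower with KCl, at 8.36, 5.65, 8.35 and 6.00 FPKM.

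The genes of H2A.Z, a variant placed at promoters and enhancers, were higher with KCl. H2afz measured 8.64 FPKM in wild-type basal, 11.7 in wild-type KCl, 8.45 in cKO basal and 13.8 in cKO KCl. Both KCl libraries were above both basal libraries, by 1.36-fold in wild type (1.09 to 1.69) and 1.64-fold in cKO cultures (1.33 to 2.02). The direction within each genotype, though not the size, held under the 4 rescalings. H2afv, which encodes H2A.Z2, measured 15.6, 20.4, 16.47 and 20.6 FPKM, and its higher KCl values changed sign under rescaling to the ribosomal protein genes.

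H2afx, whose product is phosphorylated at DNA breaks, is the variant with a stem-loop match and a long annotated end (822 bases after it). It measured 39.3 FPKM in wild-type basal, 32.2 in wild-type KCl, 47.5 in cKO basal and 35.4 in cKO KCl. KCl was lower by 1.22-fold in wild type (1.12 to 1.33) and 1.34-fold in cKO cultures (1.24 to 1.45), a direction that held under the 4 rescalings. The cKO was the higher in both conditions. H2afj stood between 13.2 and 16.04 FPKM in the 4 libraries.

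The linker variants were lower or level with KCl, unlike Hist1h1c. H1f0, the linker histone of differentiated cells, measured 65.1 FPKM in wild-type basal, 58.3 in wild-type KCl, 80.1 in cKO basal and 66.9 in cKO KCl. It was lower with KCl by 1.12-fold in wild type (1.06 to 1.18) and 1.20-fold in cKO cultures (1.14 to 1.26), which changed sign under rescaling to the presynaptic genes. The ratio of H1f0 to Hist1h1c within a library was 2.72 and 2.68 in the basal libraries and 1.78 and 1.71 after KCl. H1fx stood at 39.6, 34.4, 40.3 and 40.6 FPKM. In the cKO, H1f0 was 1.23-fold higher at basal KCl (1.17 to 1.29) and 1.15-fold after KCl (1.09 to 1.21), a direction that held under the 4 rescalings.

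**Figure D3:**
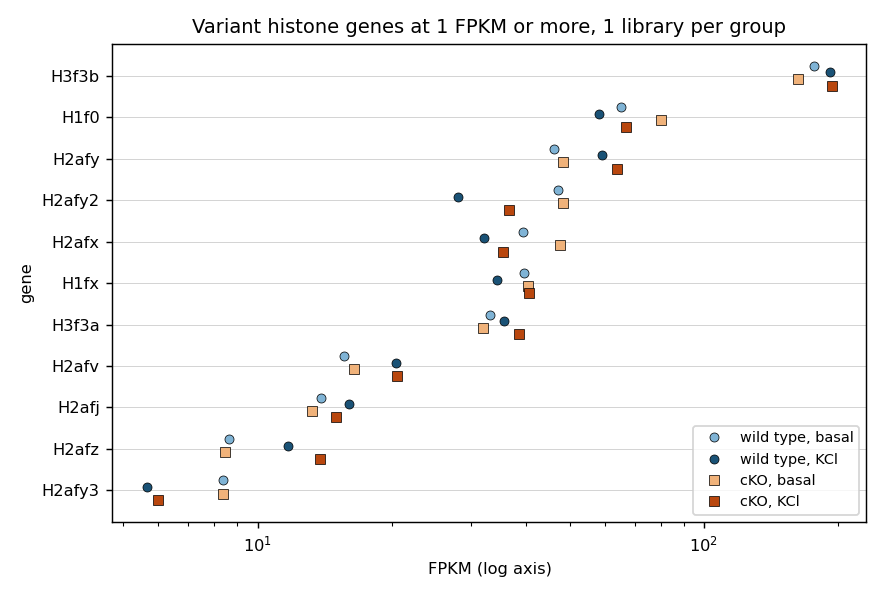
FPKM on a log axis for the 11 variant histone genes that reached 1 FPKM, with 1 point per library (circles wild type, squares cKO, darker shade KCl). H2afy2 is lower and H2afy higher in the KCl libraries, and H3f3b lies between 162.7 and 193.8.

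Of the 11 variant genes at 1 FPKM, 0 were past 2-fold on log2(FPKM + 1) in any of the 4 comparisons, in which 8.39% and 7.5% of all genes were past it with KCl (wild type, then cKO) and 1.49% and 2.82% between genotypes (basal, then KCl). Their median log2 ratio with KCl was 0.10 in wild type and 0.17 in cKO cultures, and −0.28 and −0.27 with rescaling to the ribosomal protein genes. Between genotypes it was 0.02 at basal KCl and 0.11 after KCl. As deposited 6 of the 11 were higher and 5 lower in cKO cultures at basal KCl, and 10 and 1 after KCl. Of all 13248 genes 6918 were higher and 6270 lower at basal KCl, and 7302 and 5915 after KCl. Under all 4 rescalings 6 of the 11 stayed higher at basal KCl and 7 after KCl, and 0 stayed lower in either. Rescaling to the presynaptic genes raised every cKO ratio, which takes genes out of the lower count.

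The difference in KCl response was taken as the log2 ratio of the cKO less that of wild type. Among members at 1 FPKM it was largest in size for Hist1h2bc (−0.79) and Hist2h3c1 (−0.68). For the other members at 1 FPKM it lay between −0.34 (Hist1h2ac) and 0.33 (H2afy2). Hist1h2be, just below that limit, had a difference of −0.54. The median difference at 1 FPKM or more was −0.03 over the clustered and 0.08 over the variant genes, beside 0.02 over all genes. The comparisons that enter it share libraries by construction, so the value of Hist1h2bc is also the step between its genotype differences at basal KCl (0.29) and after KCl (−0.50).

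**Figure D4:**
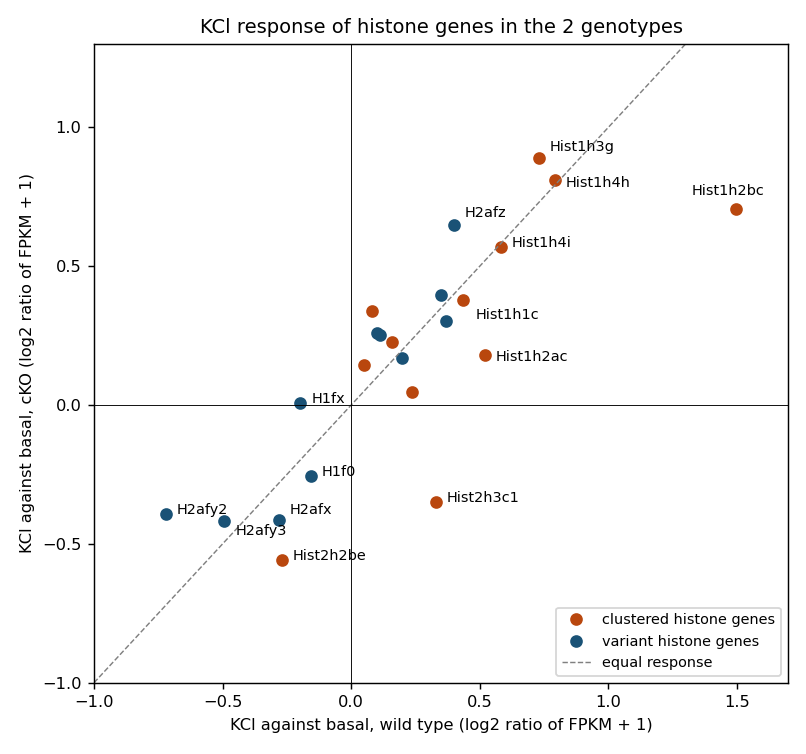
Log2 ratio of FPKM + 1, KCl against basal, in wild type (horizontal) and cKO (vertical) for the 23 histone genes at 1 FPKM or more, with the dashed line marking equal response. Hist1h2bc lies below the line at 1.498 and 0.70, Hist2h3c1 has opposite signs, and H2afy2, H2afx, H2afy3, H1f0 and Hist2h2be are lower with KCl in both genotypes.

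Genes that make, process and place histones were compared from lists. Of 13 histone mRNA processing genes at 1 FPKM, 1 was at least 2-fold higher on log2(FPKM + 1) and 1 lower with KCl in wild type, near the 5.07% and 3.31% of all genes. In the cKO 0 were higher and 1 lower, beside 4.41% and 3.09% of all genes. Srrt, a cap-binding partner protein, measured 24.1 FPKM in wild-type basal, 51.1 in wild-type KCl, 27.6 in cKO basal and 48.0 in cKO KCl. Lsm10, a subunit of the U7 particle that cuts histone pre-mRNA, measured 13.4, 5.28, 16.7 and 7.74 FPKM, and its partner Lsm11 24.8, 12.6, 17.9 and 9.48. Slbp, the protein that binds the stem-loop, stood at 10.9, 10.9, 12.6 and 12.4 FPKM.

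Of 24 chaperone and deposition genes, 1 was at least 2-fold higher and 0 lower on the same scale with KCl in wild type, where 5.07% and 3.31% of all genes were, and 0 were past this size in the cKO, where 7.5% of all genes were. It was Ubn1, a subunit of the HIRA complex that deposits H3.3, at 10.4 and 31.0 FPKM in wild type and 11.2 and 21.9 in cKO cultures. Asf1a, an H3-H4 chaperone, measured 11.1 and 20.8 FPKM in wild type and 12.4 and 12.6 in cKO cultures. Nap1l1, an H2A-H2B chaperone, measured 33.8 and 64.4 in wild type and 36.1 and 61.5 in cKO cultures. The median log2 ratio of the list with KCl was 0.16 in wild type and 0.19 in cKO cultures, beside −0.01 and 0.01 over all genes.

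Markers of dividing cells, in which clustered genes are known to be transcribed, were also measured. Of 24 S phase genes, 1 was past 2-fold on log2(FPKM + 1) in any comparison, Rrm1 with KCl in wild type (13.3 and 31.7 FPKM), where 8.39% of all genes were past it, beside 7.5% with KCl in cKO cultures and 1.49% and 2.82% between genotypes. Pcna, the replication clamp, measured 18.9 FPKM in wild-type basal, 29.7 in wild-type KCl, 22.6 in cKO basal and 37.3 in cKO KCl, and the summed list 124.4, 164.8, 162.7 and 204.1. The 10 mitosis genes were all higher with KCl in both genotypes and all higher in the cKO in both conditions, 0 of them past 2-fold on log2(FPKM + 1), and summed to 38.3, 55.7, 74.2 and 100.9 FPKM. In the deposited values 6 of the 10 were at least 2-fold higher in cKO cultures at basal KCl, and after KCl 2 were. Rescaled to the ribosomal protein genes, 7 of 10 were higher with KCl in wild type, beside 6 of 10 in cKO cultures, while the genotype direction held for all 10 under the 4 rescalings. Of the S phase genes, 23 of 24 were higher in cKO cultures at basal KCl and 22 of 24 after KCl, and 17 and 19 were higher with KCl (wild type, then cKO), which became 8 and 5 with rescaling to the ribosomal protein genes. Mki67, a marker of cycling cells, stood at 5.19, 8.79, 10.05 and 15.4 FPKM.

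Markers of other cell types were present as well. Over 5 progenitor markers the sum was 180.5 and 499.6 FPKM in wild type (basal, then KCl) and 219.6 and 538.3 in cKO cultures. With KCl 5 of the 5 were higher in wild type and 4 in cKO cultures. Between genotypes 3 were higher and 2 lower in cKO cultures at basal KCl, and 2 higher and 3 lower after KCl. The sums over 6 microglia markers were 118.6, 153.2, 249.9 and 342.0, over 6 vascular and fibroblast markers 17.3, 31.3, 56.4 and 125.0 with Cldn5 at 0 in all 4 libraries, over 5 astrocyte markers 477.1, 607.7, 406.1 and 530.0, and over 6 oligodendrocyte lineage markers 529.8, 610.4, 381.8 and 342.9. The 7 neuron markers summed to 2911 and 2086 FPKM in wild type and to 2737 and 1920 in cKO cultures, but with KCl 4 of the 7 were higher in wild type and 3 in cKO cultures. Tubb3, a neuronal tubulin gene, was the lowest relative to basal, at 1187, 278.4, 1175 and 283.7 FPKM, and the sum without it was 1725, 1808, 1562 and 1637 FPKM. In bulk libraries fewer cells of a type and less RNA per cell cannot be told apart. The part of dividing cells and of these other cell types in the levels of the histone genes was not tested.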

How the data were processed

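RNA was sequenced from 4 libraries, 1 per combination of genotype and KCl. The authors deposited 1 table of gene values. Its unit was read from the values as FPKM, because the labels name none: low values lie on steps whose size depends on the gene, and the deposited FPKM columns total 302041 to 330621. Per the submitters' processing notes TopHat 1.3.2 and mm9 were used. The program that made the FPKM values, the annotation, the handling of reads with several matches and any scaling between libraries were not given in the sources used here.

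The table's symbols were matched to GENCODE M21 (78 of 82 members) and RefSeq GRCm38.p6 (77 of 82) for ends, lengths and promoters. These differ from the authors' build. Depth was approximated as the commonest depth at which a value is 1 fragment, over genes under 0.03 FPKM with 1 transcript longer than 1500 bases. Fragments of a member were approximated with the shorter of its median GENCODE transcript and its RefSeq span, and intervals are exact binomial (95%), conditional on the sum of both libraries.

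Log2 ratios were taken after adding 1, over genes that reached 1 FPKM in any library. No test was possible with 1 library per group, and 2-fold is a fixed size. Fold values are ratios of deposited FPKM. Members, lists and the naming rule (all members at 1 FPKM, up to 4 genes per list with the largest ratio, plus Slbp, Pcna and Mki67) were chosen with earlier results of these data known. Members below 1 FPKM that are named, and the promoters printed, were picked after their values were seen. Alternatives were a pseudocount of 0.1, limits of 0.1 and 5 FPKM, leaving out pseudogenes (chosen after the data were seen), and rescaling each library to the median ratio or upper quartile of all genes, or to the median ratio of the ribosomal protein or presynaptic genes. Calculations used Python 3.11.15, NumPy 2.4.6, pandas 2.3.3, SciPy 1.17.1 and matplotlib 3.10.9, and were tested on simulated data.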

Additional observations from a re-analysis of the deposited data

Results flagged for a closer look

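Opposite directions between groups, with at least 0.25 on the log2 scale on each side, were found for 2 histone genes at 1 FPKM or more. Neither difference was tested, since each group has 1 library. Hist1h2bc had a genotype difference of 0.29 at basal KCl and −0.50 after KCl, a change of −0.79, and both signs held under the 4 rescalings. Hist2h3c1 had a KCl response of 0.33 in wild type, against −0.35 in cKO cultures, which is a difference of −0.68. All of its annotated stretches of 50 bases are shared with other genes, and the sign in wild type turned with rescaling to the ribosomal protein genes.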

How the results depend on the processing

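No paired analysis was possible because each group has 1 library, and for the same reason no library could be left out. Of the alternative values of the medians and 2-fold counts, 133 stayed within set limits and 11 moved. The limit for a count was 1.5 times the count. For a median it was the median half-width of the counting intervals of single genes, which is not the counting error of a median. It is wide for the clustered genes. Their cKO median with KCl counts as within it, though its sign changed with rescaling to the ribosomal protein genes. With rescaling to the ribosomal protein genes the variant median with KCl became −0.28 (wild type) and −0.27 (cKO cultures), and the count of variant genes past 2-fold in wild type became 1 (H2afy2). With rescaling to the presynaptic genes the variant medians became 0.35 and 0.48 with KCl, 0.24 for genotype at basal KCl and 0.40 after KCl, and the count of clustered genes past 2-fold with KCl in the cKO became 3. That rescaling put the all-gene median at 0.21 to 0.30 on the log2 scale in the 4 comparisons. With a pseudocount of 0.1 the clustered genes past 2-fold numbered 4 with KCl in wild type, 2 with KCl in the cKO and 2 for genotype at basal KCl. Leaving out pseudogenes, chosen after the data were seen, kept all values within these limits. Single genes were recomputed under the 4 rescalings alone, where 276 values stayed within counting error, 92 moved beyond it, and 0 that were past 2-fold changed sign. The rescaled counts of members between 0.1 and 1 FPKM were added after the data were seen. Depth limits every clustered gene below 1 FPKM, where 1 fragment on 500 bases is about 0.1 FPKM.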
